A study of Solanum tuberosum with 8 samples.

Results

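This account describes 96 abundant potato transcripts that stood 3-fold to below 8-fold higher in bud meristems of sprouting tubers than in those of dormant tubers. They are the genes of the authors' deposited table with the status OK, at least 100 FPKM (sequenced fragments scaled to transcript length and library size) in nondormant meristems, and a nondormant value at least 3 and below 8 times the dormant one. Genes starting on chromosome 1 between 1 and 2 Mb, on chromosome 3 between 16 and 21 Mb or on chromosome 4 between 6 and 7 Mb were left out, which removed 3 genes. The 96 are part of 19664 tested genes and of 35091 genes in the table. They were chosen by both group values and their ratio, so their levels, ratios and calls are given as a description and not as a test. The table holds identifiers without gene names, and 0 of the 96 identifiers matched the reference gene table, so loci are given by position as the table prints it, with no build named and no function assigned.

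Tubers came from field-grown plants of the cultivar Russet Burbank. The dormant group comprised 4 meristem samples taken about 2 weeks after harvest in the autumns of 2005, 2007, 2009 and 2010. The nondormant group comprised 4 samples taken in the springs of 2006, 2008, 2010 and 2011 from tubers kept at 4 °C until sprouts appeared. Storage time and cold exposure therefore differ between the groups together with dormancy, and the number of tubers behind each sample is not stated in the labels. The table holds 1 value per gene and group and none per sample, so no level or ratio below has a replicate error, and read depth is unknown.

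A potato tuber is a swollen stem whose eyes hold bud meristems. After harvest these buds pass through a dormant period in which cell division is largely arrested, and release from it brings back division and growth. Abscisic acid and ethylene are known to act in holding tuber buds dormant, while cytokinins and gibberellins promote sprouting. In bulk samples of excised buds, a lower value may reflect fewer cells of a type or less RNA per cell, and these cannot be told apart here. Without gene names, markers of storage tissue, periderm or vascular tissue could not be examined, so the part that other tissues in the excised buds play in these values was not tested.

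The nondormant values of the 96 loci ran from 107 to 2051 FPKM, with a median of 246, and their dormant values from 15.8 to 603 FPKM, with a median of 51.3. The bounds of the rule put every dormant value above 11.4 FPKM, the median dormant value of the tested genes, and 32 of the 96 were at 100 FPKM or more in dormancy. The median rank among tested genes was 603.5 by nondormant and 2970.5 by dormant value, where rank 1 is the highest. By nondormant value 75 of the 96 were among the 1000 highest genes, and by dormant value 20 were. Together they made up 4.87% of the summed nondormant and 1.17% of the summed dormant FPKM of the table. The direction and much of the size of these shifts follow from the rule as well.

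**Figure D1:**
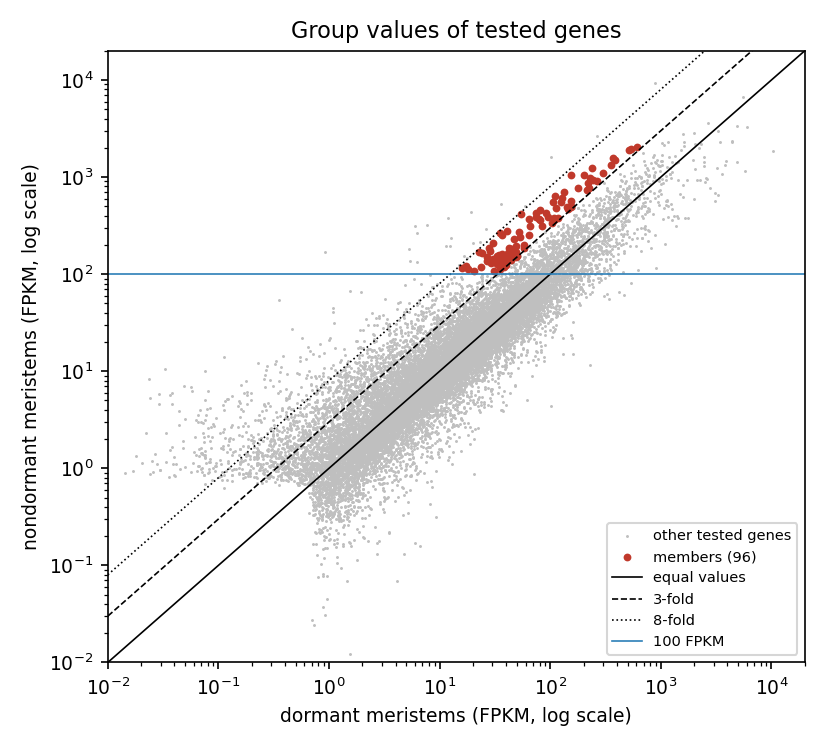
Dormant (x axis) against nondormant (y axis) FPKM of the tested genes, both on log scales, with the 96 loci in red, the other tested genes in grey, and lines at equal values, 3-fold, 8-fold and 100 FPKM. The 44 genes with 0.01 FPKM or less in a group are not drawn. The red points fill the band between the 3-fold and 8-fold lines above 100 FPKM, with dormant values of 15.8 to 603 FPKM.

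The median ratio was 4.08 (quartiles 3.48 and 5.19), a median log2 ratio of 2.03, against -0.05 for all tested genes. The ratios crowded toward the lower bound, with 46 loci from 3-fold to below 4-fold, 23 from 4-fold to below 5-fold, 14 from 5-fold to below 6-fold and 13 at 6-fold or more. Within the bounds of the rule, ratio hardly varied with nondormant level (Spearman rho 0.04 across the 96 loci, as a description). The median was 3.96-fold in the 45 loci below 200 FPKM, 4.67-fold in the 27 from 200 to 500 FPKM, 4.09-fold in the 14 from 500 to 1000 FPKM and 3.86-fold in the 10 above 1000 FPKM. With dormant level, the denominator of the ratio, the rho was -0.31. The rule limits both level and ratio, and the shared denominator favours a negative value, so nothing is read from either rho. The loci at 6-fold or more had a median of 28.5 FPKM in dormancy and 186 FPKM after it, against 57.4 and 195 FPKM in the loci below 4-fold. In the loci from 5-fold to below 6-fold both medians were higher, at 73.8 and 407 FPKM, so the order of the levels did not follow that of the ratios.

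**Figure D2:**
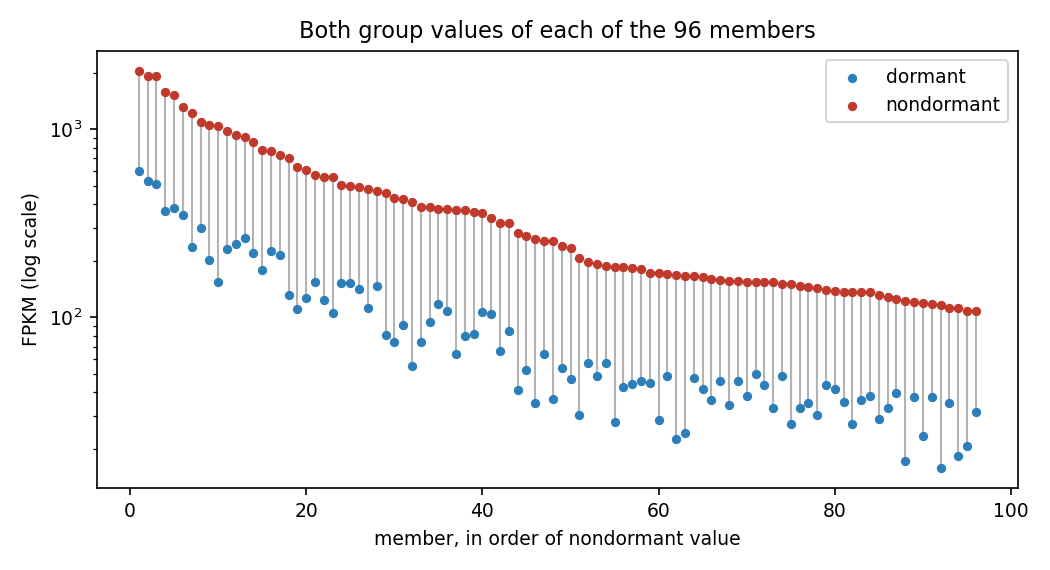
Dormant (blue) and nondormant (red) FPKM of each of the 96 loci on a log scale, in order of nondormant value, each pair joined by a grey line. The gap between the points varies from locus to locus, from 3.07-fold to 7.50-fold. It shows no steady change along the order, from 2051 FPKM at the left to 107 FPKM at the right. The rule itself limits this gap to 3-fold to below 8-fold.

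All 96 loci were called by the authors (deposited q of 0.05 or less). Among all tested genes 10.9% were called in either direction and 7.17% as higher in nondormant meristems. Because the calls come from the contrast that chose the loci, nothing is read from this count. At a deposited q of 0.01 or less 89 of the 96 were still called, where 3.59% of all tested genes were called higher in nondormant meristems. The deposited p-value stood at its smallest possible value, 5e-05, for 69 of the 96 loci and for 2.79% of all tested genes. Those 69 had a median ratio of 4.55 and the other 27 a median ratio of 3.43.

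At this abundance a ratio of 3 was enough for a call in nearly every gene. Of 122 tested genes with at least 100 FPKM in nondormant meristems and a ratio of 3 or more, 120 were called, whereas 72 of the 130 with a ratio from 2 to below 3 were (55.4%). In the same band of ratios the called share fell with level, from 99 of 99 genes at 100 FPKM or more (the 96 and the 3 left out) to 153 of 155 from 30 to 100 FPKM, 240 of 257 from 10 to 30, 259 of 336 from 3 to 10, 82 of 279 from 1 to 3 and 4 of 45 below 1 FPKM. The median ratio in these 6 classes differed little, from 4.10 to 4.71. In the opposite direction, 69 genes had at least 100 FPKM in dormant meristems and stood 3-fold to below 8-fold higher there, and 65 of them were called, where 3.75% of all tested genes were called higher in dormant meristems. The regions left out in choosing the 96 were not left out for this set. Of those 69 genes 34 reached the smallest p-value (49.3%), against 71.9% of the 96. Their median ratio was lower, at 3.64, and whether the share differs beyond this was not tested.

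**Figure D3:**
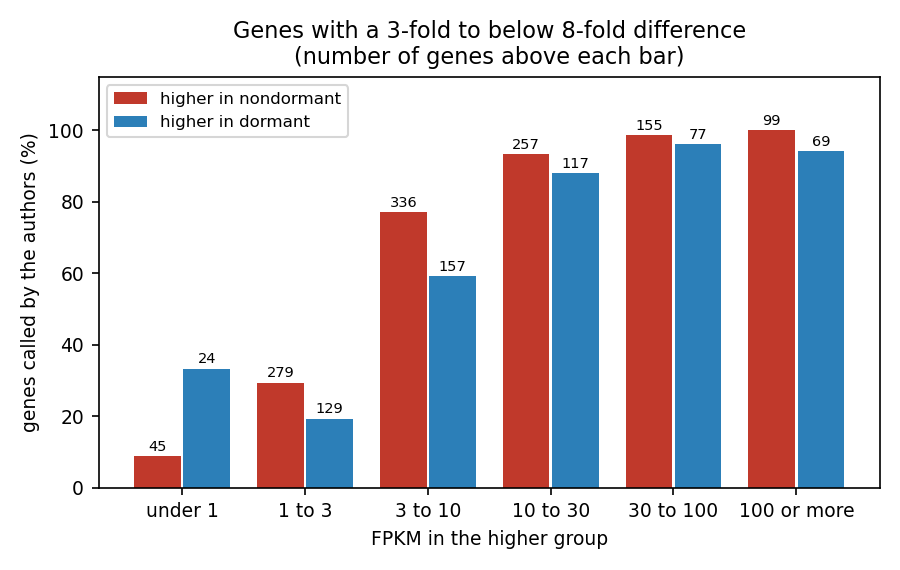
Percentage of tested genes called by the authors among genes 3-fold to below 8-fold higher in nondormant (red) or dormant (blue) meristems, by the FPKM of the higher group, with the number of genes above each bar. Among genes higher in nondormant meristems the share rises from 4 of 45 genes below 1 FPKM to 99 of 99 at 100 FPKM or more.

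Of the 96 loci, 10 exceeded 1000 FPKM in nondormant meristems and held 35.8% of their summed nondormant FPKM. PGSC0003DMG400020553 (chr6:1845820-1850085) was the highest, at 603 FPKM in dormancy and 2051 FPKM after it (3.40-fold). The locus at chr11:3324144-3325559 rose from 534 to 1925 FPKM (3.60-fold). A short locus at chr7:52915625-52916171 rose from 511 to 1916 FPKM (3.75-fold). These 3 were also the highest of the 96 in dormant meristems, so they were abundant transcripts in both states.

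Another 3 of the 10 had wider ratios. The locus at chr11:11363541-11364885 stood at 370 FPKM in dormancy and 1572 FPKM after it (4.25-fold). At chr1:70120996-70121776 the value rose from 236 to 1225 FPKM (5.18-fold). The widest gap among the 10 was at chr11:36433766-36434441, with 154 FPKM in dormancy and 1044 FPKM after it (6.77-fold). Its nondormant value was the lowest of the 10 and its dormant value was the lowest as well. In the authors' deposited table all 3 of these loci had the smallest q-value, 0.00179.

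The other 4 of the 10 had the weaker calls. The locus at chr2:27247400-27250571 rose from 382 to 1515 FPKM (3.97-fold), with a q of 0.0299 in the authors' deposited table. The locus at chr7:39445217-39449395 rose from 351 to 1316 FPKM (3.75-fold), and its q of 0.0436 was the largest of the 96 in the authors' deposited table. At chr12:5687895-5692121 the value rose from 298 to 1098 FPKM (3.69-fold), with a q of 0.0210 in the authors' deposited table. A further locus of chromosome 7, at chr7:39493320-39495045, rose from 202 to 1056 FPKM (5.23-fold), and the authors' deposited table gives its q as 0.0112. Only 7 of the 96 loci had a q above 0.01, and these 4 of the most abundant loci were among them. The remaining 3 were at chr4:58278474-58282941, chr4:48481685-48482173 and chr2:41631167-41633333, with 150 to 198 FPKM in nondormant meristems.

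The authors' test statistic gives a view of their error that the ratio does not. The log2 ratio divided by the statistic is larger where the authors' test gave less weight to a ratio of the same size. Its median was 0.688 in the 96 loci, 0.669 in the other 1388 tested genes at 100 FPKM or more in nondormant meristems and 0.757 in all tested genes. In 4 of the 96 it exceeded 1, and 3 of these were the weakly called loci above 1000 FPKM on chromosome 2 (1.12) and chromosome 7 (1.14 at both). The chromosome 6 locus with the highest value went the other way. Its statistic in the authors' deposited table was -10.6, the largest in size among the 96, which gave a quotient of 0.167, but its p-value of 0.00035 was not at the smallest value. Its statistic and its p-value thus rank it differently, and values per sample would be needed to say how variable it was.

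At the high end of the ratios, PGSC0003DMG400012763 (chr1:63695245-63698066) rose from 54.8 FPKM in dormancy to 411 FPKM after it (7.50-fold). The locus at chr10:9631781-9632592 rose from 35.0 to 262 FPKM (7.50-fold). At chr1:53764862-53765575 the value rose from 15.8 to 116 FPKM (7.32-fold). The last of these had the lowest dormant value of the 96. Of the 13 loci at 6-fold or more, 5 were on chromosome 1.

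Those 5 were part of a wider arrangement on chromosome 1, which was noticed after the values had been seen. The chromosome held 14 of the 96 loci. The 7 that lay between 51177377 and 63698066 had ratios of 5.20 to 7.50 (median 6.69), with 112 to 557 FPKM in nondormant and 15.8 to 105 FPKM in dormant meristems. The 7 that lay from 65253041 to 74682242 had ratios of 3.32 to 5.56 (median 3.496), with 137 to 1225 FPKM in nondormant and 27.0 to 236 FPKM in dormant meristems. The tested genes of the first stretch as a whole did not stand out: 43 of 536 were called higher in nondormant meristems (8.02%), against 47 of 725 in the second stretch (6.48%) and 7.17% of all tested genes, and the median log2 ratios were -0.06 in both. The difference between the groups of 7 was not tested.

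The loci lay on all 12 chromosomes. Chromosome 11 had 12 of them among its 93 tested genes at 100 FPKM or more (12.9%), the highest share, and chromosome 10 had 4 among 107 (3.74%), the lowest. Chromosome 1 had 14 among 197 (7.11%), and all chromosomes together had 96 among 1484. The counts of abundant genes include those in the left-out regions of chromosomes 1, 3 and 4, which could not be among the 96. The median distance to the nearest other locus of the 96 was 1305 kb, and 25 loci lay within 500 kb of another. This distance was not measured for other sets of genes. In 6 pairs the starts were within 100 kb, and in 3 of these no other tested gene lay between. The chromosome 12 locus given above was followed by one at chr12:5764808-5770212, which rose from 111 to 631 FPKM (5.71-fold). A pair of short loci lay within 29.8 kb on chromosome 11. The first, at chr11:41794175-41794748, rose from 31.3 to 107 FPKM (3.44-fold), and the second, at chr11:41823412-41823995, rose from 73.8 to 429 FPKM (5.81-fold). These pairs did not share a level or a ratio, although both partners were called.

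The third such pair was on chromosome 7 and belonged to a stretch of 284 kb, chr7:39445217-39729138, which was picked once its values had been seen. It held 5 tested genes, of which 3 were among the 96. The first 2 are given above, and the outer one, at chr7:39727444-39729138, rose from 79.6 to 373 FPKM (4.68-fold). Between them lay the gene with the highest nondormant value of the whole table, at chr7:39619065-39620684, which the upper bound of the rule kept out. It rose from 878 to 9202 FPKM (10.5-fold), with a q of 0.0353 in the authors' deposited table. The remaining gene, at chr7:39658307-39660648, stood at 197 FPKM in dormancy and 509 FPKM after it (2.58-fold) and missed the threshold, with a q of 0.0894 in the authors' deposited table. All 5 had the higher value in nondormant meristems. Together they made up 1.47% of the summed nondormant and 0.200% of the summed dormant FPKM. Much of this was the gene kept out by the upper bound. It held 9202 of their 12456 FPKM in nondormant and 878 of their 1708 FPKM in dormant meristems. The nearest tested genes on either side, at 931 (dormant) and 1488 FPKM (nondormant) before the stretch and 14.9 and 11.3 FPKM after it, were not called.

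**Figure D4:**
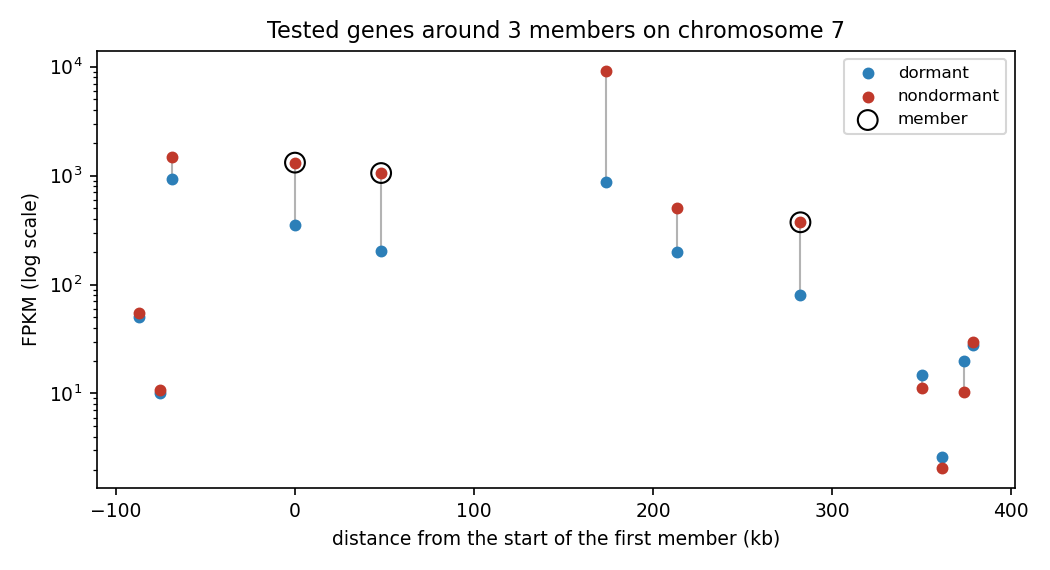
FPKM (log scale) of tested genes in dormant (blue) and nondormant (red) meristems by distance in kb from the start of the first of 3 loci on chromosome 7, with the 3 loci circled. The 5 genes between 0 and 282 kb all have higher red than blue points, by 2.58-fold to 10.5-fold, and the points of each gene outside this range lie closer together.

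The loci had shorter intervals, by their median, than other abundant genes. The length of the printed interval, which includes introns, had a median of 1936 bp (quartiles 753 and 3990) in the 96, against 2930.5 bp in the other 1388 genes at 100 FPKM or more and 3526 bp in all tested genes. An interval under 1000 bp was found for 31 of the 96 (32.3%), 169 of the 1388 (12.2%) and 11.2% of all tested genes. In the 69 abundant dormant-higher genes, chosen with no region left out, the median was 1844 bp, and 21 of them (30.4%) were under 1000 bp. Below 800 bp the shares were 28.1% of the 96, 14.5% of the 69, 9.58% of the 1388 and 7.57% of all tested genes. FPKM divides by transcript length, and the part of length in the choice of these genes was not tested.

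Among the 96, the 31 short loci had a median ratio of 4.67 and 25 of them (80.6%) were at the smallest p-value, against a median ratio of 3.97 and 44 of 65 (67.7%) for the longer ones. Their median nondormant value was 316 FPKM against 186 FPKM. The log2 ratio per unit of the statistic rose with length across the 96 (Spearman rho 0.58), with a median of 0.611 in the short and 0.747 in the longer loci. Across the 1388 other abundant genes that rho was 0.25, and across all tested genes -0.04. These correlations describe genes of the same 2 pooled values and have no p-value.

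**Figure D5:**
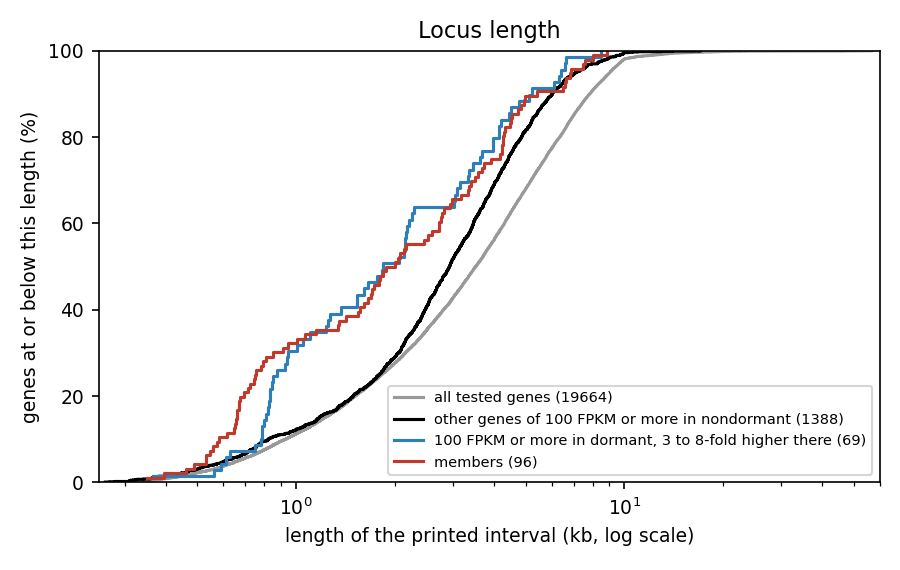
Cumulative percentage of genes (y axis) by length of the printed interval in kb (x axis, log scale) for the 96 loci (red), the 69 abundant genes 3-fold to below 8-fold higher in dormant meristems (blue), the other 1388 genes at 100 FPKM or more in nondormant meristems (black) and all tested genes (grey). The red and blue curves lie left of the others, with medians of 1936 and 1844 bp against 2930.5 and 3526 bp.

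Genes beside the 96 loci, which the rule did not use, held a larger share of nondormant-higher calls than tested genes at large. Of 185 adjacent tested genes outside the 96, 29 were called in the same direction (15.7%) and 2 in the opposite one (1.08%), where the background was 7.17% and 3.75%. Beside the other 1388 abundant genes the shares were 8.26% and 3.73% of 2385 adjacent genes. The 2385 leave out the 1388 themselves and may include some of the 96. The 185 leave out only the 96 and include other abundant genes, so the shares are not like for like. The median log2 ratio of the 185 was 0.04, and 53.5% of them had the higher value in nondormant meristems. Gaps of up to 5 kb gave 12 of 77 called (15.6%), gaps from 5 to 20 kb 11 of 51 (21.6%) and gaps above 20 kb 6 of 52 (11.5%). The 69 abundant dormant-higher genes also had neighbours called in their own direction, 14 of 131 (10.7%, against a background of 3.75%), beside 9 (6.87%) called higher in nondormant meristems. Unlike the 96, the 69 were chosen with no region left out, so their share is not like for like either. These shares were not tested.

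Some called neighbours were themselves above 100 FPKM after dormancy. Next to the chromosome 11 locus at 1572 FPKM, the gene at chr11:11388683-11389382 rose from 6.01 to 312 FPKM (51.9-fold), with a q of 0.00179 in the authors' deposited table. At chr4:59861132-59862693 a gene rose from 12.6 to 235 FPKM (18.7-fold), also with a q of 0.00179 in the authors' deposited table. The locus of the 96 beside it, at chr4:59885275-59887353, rose from 38.3 to 136 FPKM (3.54-fold). In both cases the neighbour had a lower dormant value than the locus itself. These neighbours had the widest ratios among the called neighbours above 100 FPKM. Several of the others had a higher dormant value than the locus beside them.

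Other called neighbours matched their locus in length. Of 180 pairs of a locus and an adjacent tested gene outside the 96 on a separate interval, 24 had lengths within 10% of each other. In 8 of these (33.3%) the neighbour was called higher in nondormant meristems, against 21 of the 156 other pairs (13.5%). Beside the other 1388 abundant genes the shares were 23 of 211 (10.9%) and 8.21%, and the differences were not tested. A neighbour of the 96 could itself be at 100 FPKM or more, as in the pairs given below. The compared pairs were not matched for the level of the neighbour, so these shares are not like for like. The 10% limit was set after some of these pairs had been seen. At chr10:41837529-41837880 a locus of 351 bp rose from 41.0 to 280 FPKM (6.82-fold), and its neighbour of 357 bp, at chr10:41834180-41834537, rose from 12.3 to 196 FPKM (15.9-fold). At chr8:32672192-32674192 a locus of 2000 bp rose from 44.8 to 172 FPKM (3.84-fold), and its neighbour of 1988 bp, at chr8:32667804-32669792, rose from 17.5 to 148 FPKM (8.45-fold). At chr1:71314885-71315635 a locus of 750 bp rose from 107 to 360 FPKM (3.36-fold), and its neighbour of 748 bp, at chr1:71322059-71322807, rose from 259 to 605 FPKM (2.34-fold). In the first 2 of these pairs the neighbour had the wider difference, and in the last the locus itself had it. Whether paired loci share sequence, and so reads, was not tested, since no sequence was used here.

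For 6 of the 96 loci the printed interval was also that of another gene model (6.25%, against 3.75% of the other abundant and 9.23% of all tested genes), and no source used here says how reads were divided within such an interval. In 5 of the 6 the other model was the minor one in both states, with at most 10.2 FPKM in dormancy and 40.5 FPKM after it. The exception was at chr5:8560393-8566904, where the locus of the 96 rose from 22.7 to 168 FPKM (7.41-fold). In the authors' deposited table the model on the same interval was listed at 20.5 FPKM in dormancy and at 0 after it and missed the threshold (q = 0.291). At this interval the dormant value was split nearly evenly between the models, so the ratio of this locus is uncertain.

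Genes with similar values lay just across the lower bounds of the rule. Just inside 100 FPKM were loci at 107 and 109 FPKM, and just outside were genes at 99.3 and 99.1 FPKM with ratios of 3.07 and 4.13. Just inside 3-fold were loci at 3.07-fold, and just outside were genes at 2.997-fold and 2.94-fold. At the upper bound the highest ratios inside were 7.50, and the next outside were 8.28 and 8.45. The 3 genes removed by position had 160, 372 and 121 FPKM in nondormant meristems, with ratios of 6.53 and 5.60 on chromosome 1 and 3.01 on chromosome 3.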

How the data were processed

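RNA of 8 meristem samples (4 dormant, 4 nondormant) was compared by the authors in 1 table. Per the labels' protocols, RNA came from excised, frozen meristems by an Ambion kit, with standard Illumina libraries. The deposited group values are read as FPKM from the column layout and status words, since the header names no unit. Per the file headers, the table also gives a test statistic (a score), a p-value and a q-value per gene. The aligner, the program, the genome build and its annotation were each not given in the sources used here. Ratios were recomputed from the deposited FPKM with no pseudocount. The deposited q-value equals a Benjamini-Hochberg adjustment of the p-values within 5.2e-07.

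The members and lists were chosen with earlier results of these data known. The planned limma fit, gene lists by description and tissue markers could not be applied without values per sample or gene names. Loci were named by level (called members in order of nondormant value), by nearness to the bounds, or, where the text says so, after their values were seen; identifiers were limited to 2. Member selection and adjustment were tested on simulated data. Python 3.11.15, numpy 2.4.6, pandas 2.3.3 and matplotlib 3.10.9 were used.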

Additional observations from a re-analysis of the deposited data

How the results depend on the processing

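With the nondormant bound at 50 FPKM the rule gave 173 genes and with it at 200 FPKM 51 genes, in place of 96. Ratio bounds of 2.5 to 10 and of 3.5 to 7 gave 138 and 64, keeping the left-out regions gave 99, leaving out shared intervals 90, median scaling 101 and quantile normalization 96. Scaling and quantile normalization kept all 96 loci. Under a Bonferroni adjustment 0 of the 96 were called (89 to 96 under the other thresholds and adjustments tried), because the smallest deposited p-value of 5e-05 cannot pass it over 19664 genes; an unadjusted p under 0.05 was reached by all 96. The median log2 ratio stayed between 1.96 (pseudocount 4) and 2.08 (median scaling). All 96 loci were higher in nondormant meristems under both pseudocounts and both scalings. The bounds of the rule fix this direction under the pseudocounts and median scaling, so nothing is read from it. With pseudocount 4, 90 of the 96 loci stayed from 3-fold to below 8-fold, and the lowest ratio was 2.89. Leaving out samples was not possible, because the table holds pooled values. No paired analysis was possible because no column holds a single sample, although both groups come from the same 4 harvests. Depth is unknown, so what it limits cannot be stated.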
